A study of Homo sapiens with 6 samples.

Results

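Mitochondrial carriers are the proteins that move metabolites across the inner mitochondrial membrane. The members described here were all genes of the table whose symbol begins with SLC25A, together with MPC1 and MPC2, the subunits of the pyruvate carrier, and UCP2 and UCP3, which are carriers of the same family under other symbols. The rule found 46 of the 13117 listed genes, and it used names and no measured values. Messenger RNA was measured by RNA sequencing in SNU449, an established human line from a liver carcinoma. The cells carried pInducer20-FOXO1AAA, a construct that expresses FOXO1AAA under doxycycline. FOXO1 is a transcription factor that the kinase AKT inactivates, and the AAA form is resistant to AKT. All 6 libraries came from cells with the construct, and the labels give them the genotype WT: 3 libraries were from untreated cells (Cont) and 3 from cells given 2 µM doxycycline hydrochloride for 48 h (Dox). The comparison asked how carrier transcripts differed once FOXO1AAA was induced. The labels do not say whether the line is a single clone or whether separate cultures gave the 3 libraries of a group, so p-values measure the spread between these libraries, which may be technical. No library had doxycycline without the construct. Doxycycline also acts on mitochondrial ribosomes, as background, and in the results below effects of doxycycline and of FOXO1AAA cannot be told apart.

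The SLC25 proteins are the largest family of solute carriers and exchange nucleotides, phosphate, carboxylic acids, amino acids and cofactors between mitochondrion and cytosol. Each is folded from a repeated pair of membrane helices, and most work as exchangers that trade a substrate on one side for another on the other side. In liver cells they link glycolysis, the citric acid cycle, the urea cycle, fatty acid oxidation and the malate-aspartate shuttle.

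Promoter sequences were compared first, because several carriers of like substrate moved in opposite directions. RefSeq (GRCh38.p14) gave a promoter, 250 bases before to 50 after the gene's start, for 41 of the 46 genes. None of the 41 held the forkhead core TGTTTAC or the longer FOXO consensus TTGTTTAC, which contains it, on either strand. Only these exact letters were searched, and variants of them were not. TGTTTAT, which differs from the core in its last letter, stands unmarked in the SLC25A36 sequence below. Among all 27305 promoters of the same length, 3.41% held the core and 0.941% the consensus. Of tested genes with a promoter, 2.89% of those that rose and 1.67% of those that fell held the core. At such shares few or none of 41 promoters would be expected to hold it. Median GC was 67.0% in the carrier promoters, 65.7% in those of tested genes and 58.3% in all promoters. The palindromic NRF1 motif, searched by its consensus of 10 letters (1.36% of all promoters), and the ERR motif TNAAGGTCA (0.963%) were also in none of the 41. In tested genes that rose and that fell, their shares were 2.29% and 2.33% for NRF1 and 0.486% and 0.441% for ERR. The ETS motif CCGGAAG was in 8 (19.5%, against 10.7% of all promoters) and the E-box CACGTG in 6 (14.6%, against 7.43%), on either strand. Of the 13 promoters of carriers that rose, 4 held the ETS motif and 3 the E-box, and of the 19 of carriers that fell, 2 held each. Among all tested genes with a promoter, the ETS motif was in 19.8% of those that rose and 19.2% of those that fell, close to its share in the carriers, and the E-box was in 9.23% and 11.2%. A match is a description of the letters in this window, and no match says nothing of other regions. The 250 bases before the start are shown for SLC25A36 and SLC25A33, a pair of pyrimidine nucleotide carriers of which the former rose and the latter fell, and for SLC25A27, the carrier with the largest rise. Capitals mark the E-box and, in the first and second sequence, TGACGTCA, a palindrome noticed after the sequences were seen.
SLC25A36, chr3:140941586-140941835, + strand: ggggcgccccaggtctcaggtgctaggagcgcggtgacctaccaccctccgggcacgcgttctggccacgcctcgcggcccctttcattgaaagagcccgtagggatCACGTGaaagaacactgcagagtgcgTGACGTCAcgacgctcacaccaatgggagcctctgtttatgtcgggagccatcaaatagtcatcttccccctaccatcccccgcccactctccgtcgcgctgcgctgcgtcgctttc
SLC25A33, chr1:9539215-9539464, + strand: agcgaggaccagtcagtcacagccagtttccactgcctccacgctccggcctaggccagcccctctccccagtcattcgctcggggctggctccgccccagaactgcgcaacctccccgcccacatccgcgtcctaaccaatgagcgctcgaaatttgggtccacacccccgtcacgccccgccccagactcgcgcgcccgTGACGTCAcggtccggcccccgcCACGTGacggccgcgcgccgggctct
SLC25A27, chr6:46652725-46652974, + strand: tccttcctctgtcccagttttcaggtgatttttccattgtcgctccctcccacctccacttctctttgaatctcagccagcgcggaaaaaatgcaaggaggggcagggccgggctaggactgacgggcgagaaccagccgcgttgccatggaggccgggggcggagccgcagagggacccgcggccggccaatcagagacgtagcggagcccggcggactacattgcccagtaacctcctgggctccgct
The E-box began 143 bases before the start of SLC25A36 and 26 before that of SLC25A33, and TGACGTCA began 117 and 49 bases before. The SLC25A27 window held none of the motifs searched.

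Values are FPKM, that is, fragments scaled by transcript length and library size, obtained by taking the deposited log2 values out of the logarithm. They include an offset worth 1.58 to 2.62 reads per library, which weighs on genes with few reads alone. Above that offset the values stepped in whole reads, so reads could be recovered for 13113 of the 13117 genes, and they summed to 29.2 to 46.0 M reads per library. Genes encoded by mitochondrial DNA took 1.84% to 2.83% of these reads in Cont and 7.94% to 8.93% in Dox, so that scaling with or without them shifts every other gene. FOXO1 was at FPKM 0.741, 0.776 and 0.889 in Cont and at 2.87, 3.50 and 2.01 in Dox, and whether reads of the construct were counted there is not known. Of 13 hepatocyte markers, 5 were listed. ALB was at 0.321 ± 0.239 in Cont (SD, n = 3), whereas FGB was at 170.0 ± 30.4 and the mesenchymal marker VIM at 906 ± 7.83. In Dox, ALB was at 1.19 ± 0.459, FGB at 8.57 ± 1.88 and VIM at 291 ± 33.6. The mesenchymal list did not move one way: VIM and CDH2 fell, and FN1 (log2 change 1.88), ZEB1 (0.57) and SPARC (0.37) rose. Markers thus differed between the groups as well, and their part in the carrier results was not tested.

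Of the 46 carriers, 42 passed the filter (3 or more libraries with FPKM of 1 or higher), and 40 of those reached FPKM 1 in every library. SLC25A27 passed through Dox alone, so it had to differ, and no test of it is given. Differences were tested with limma on log2(FPKM + 1) across all 11526 genes that passed, with Benjamini-Hochberg adjustment over all of them and a threshold of adjusted p under 0.05. In Dox, 15 carriers rose and 22 fell, and 5 did not pass. Without SLC25A27, 36 of 41 changed, 14 higher and 22 lower. All other counts and shares over the tested carriers still include SLC25A27. In all tested genes 80.4% changed, with 37.6% higher and 42.8% lower. For the carriers the shares were 88.1%, 35.7% and 52.4%, and the median log2 change was -0.31, beside -0.06 for all tested genes. Changes of at least 1 in log2 were rises for 5 carriers, SLC25A27 among them (11.9%, against 16.3% of all tested genes), and falls for 11 (26.2%, against 16.6%). The 3 Cont and the 3 Dox values did not overlap for 37 of the 42 carriers, and for 82.1% of all tested genes. The median SD within a group was 7.68% of the mean in Cont and 9.87% in Dox. Each library is scaled to a size of its own, which was not the sum over the listed genes (described at the end). Less of a transcript and more of all other RNA therefore cannot be told apart. The same holds for a change in every cell and a change in some cells.

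**Figure D1:**
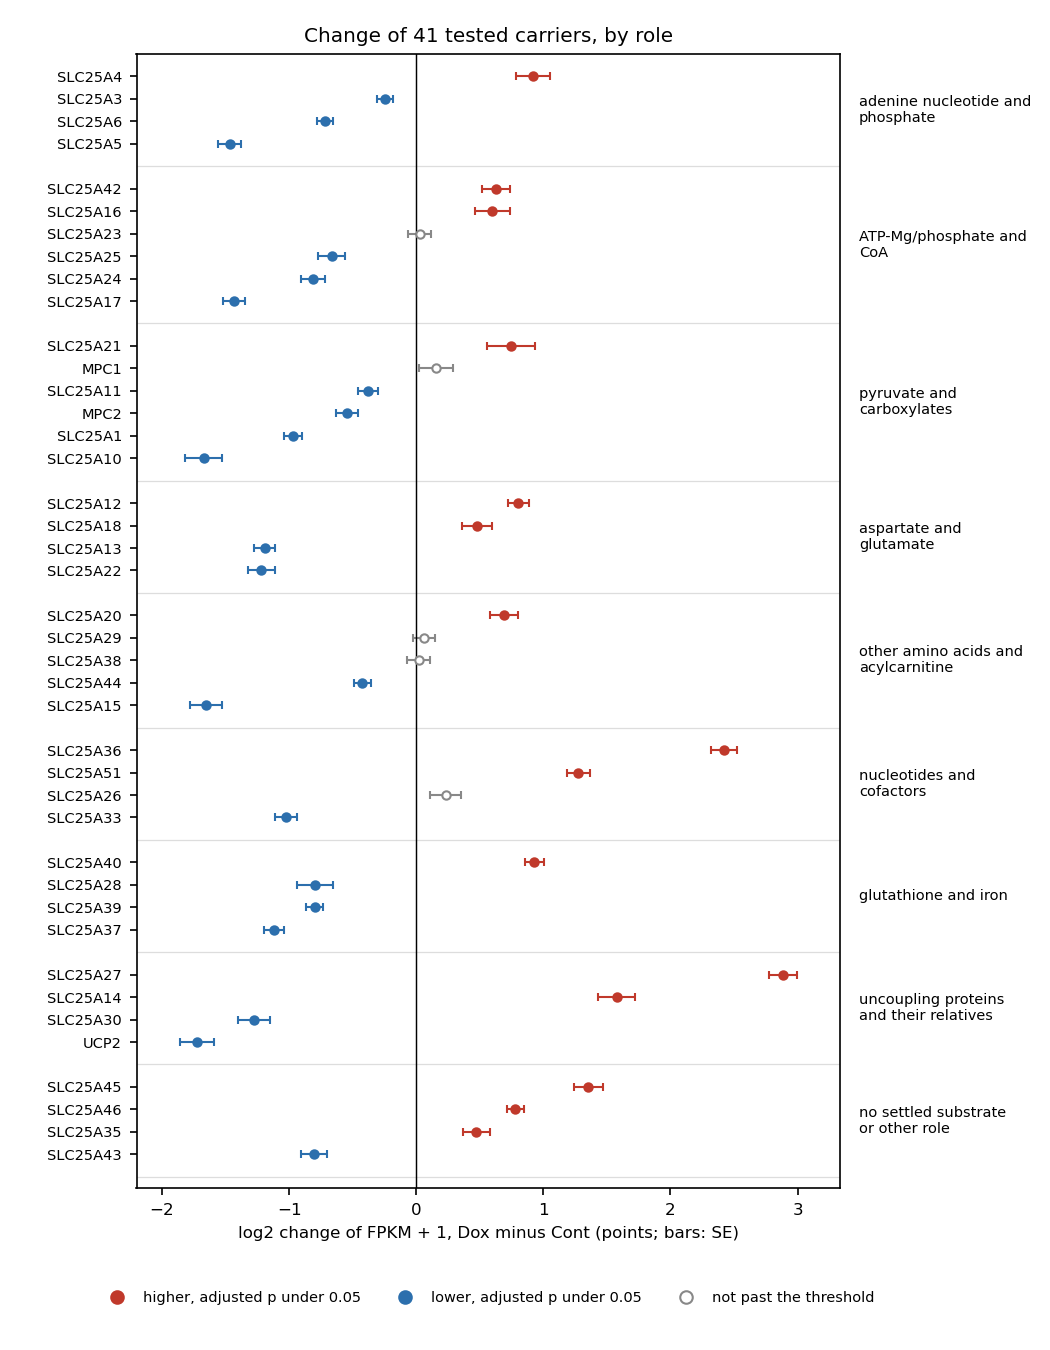
Log2 change of FPKM + 1 (Dox minus Cont, horizontal axis) with its SE for 41 of the 42 tested carriers, grouped by role; red points passed the threshold as higher, blue as lower and open points did not pass. Rises and falls stand side by side in each role group, from SLC25A27 at 2.88 to UCP2 at -1.72. SLC25A27 is drawn in red, but it passed the filter through Dox alone, so that its rise was fixed.

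Scaling moved the count of rises against falls. When mitochondrially encoded genes were removed and values rescaled to equal totals (called nuclear TPM here), 39 carriers passed (80.7% of all tested genes), of which 20 rose and 19 fell (47.6% and 33.1%), and the median of all tested genes went from -0.06 to 0.19. Across 5 scalings (FPKM as deposited, TPM with all genes, nuclear TPM, quantile normalization and median-of-ratios scaling), 14 carriers, SLC25A27 among them, rose and 19 fell under each, beside 34.6% and 33.0% of all tested genes. The share of mitochondrially encoded reads, 2.29 ± 0.504% in Cont and 8.54 ± 0.530% in Dox (SD, n = 3), moved with this difference, and its part in the result was not tested beyond these scalings. The other 9 were called under some scalings or none, and their values are given with their groups below.

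**Figure D2:**
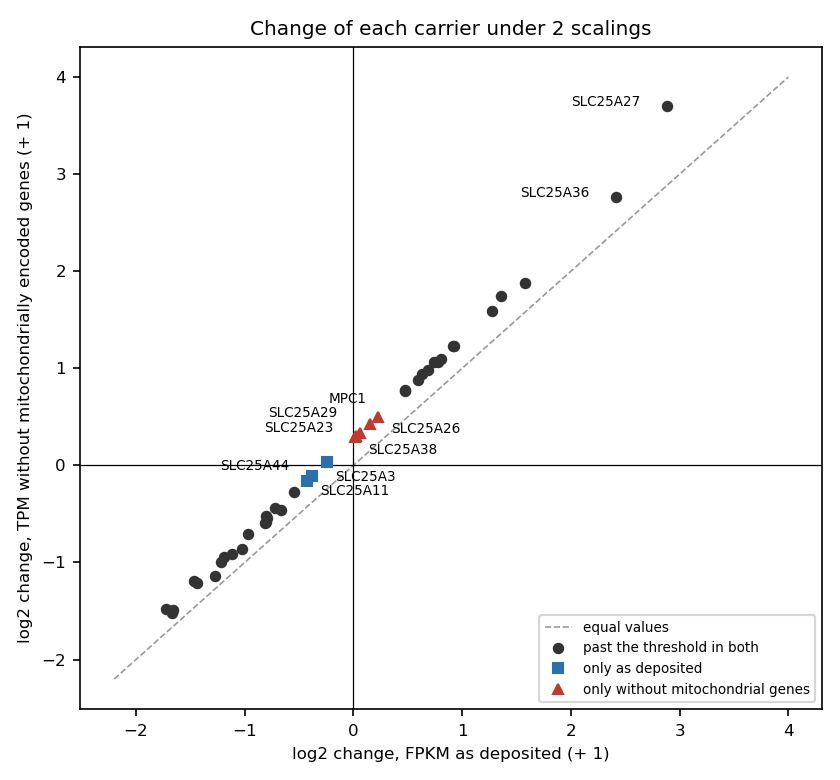
Log2 change of 41 of the 42 tested carriers with FPKM as deposited (horizontal axis) and in nuclear TPM (vertical axis), both with 1 added before the logarithm; the dashed line marks equal values. Every point lies above the line, and 8 calls differ: SLC25A3, SLC25A11 and SLC25A44 passed only as deposited, and SLC25A23, SLC25A26, SLC25A29, SLC25A38 and MPC1 only under the other scaling.

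The uncoupling proteins and their relatives held the largest rise. SLC25A27 (chromosome 6, 46652915 to 46678193, GRCh38), which encodes UCP4, known mainly from brain, was nearly silent in Cont and present in each Dox library. It had 2, 1 and 4 reads in Cont replicates 1 to 3 and 1014, 672 and 540 in Dox. That is 295-fold more reads per library scale in Dox. The 95% exact interval, 143 to 734, pools the reads of each group and covers counting error only. It is not a test, since the filter fixed that this gene differed. In FPKM it was at 0.0431, 0.0272 and 0.0594 in Cont and at 7.37, 6.88 and 5.91 in Dox (log2 difference 2.88). Because 1 was added before the logarithm, and because the Cont values are in large part offset, that difference is an understatement: with a count model on the recovered reads (limma voom) it was 8.11. SLC25A14 (chromosome X, 130339888 to 130373361), the gene of UCP5, was at 15.8, 13.7 and 10.9 in Cont and at 50.4, 38.3 and 37.6 in Dox, and rose by 1.58 (SE 0.14, limma adjusted p = 3.93e-06). The lowest Dox value was more than every Cont value. UCP2 (chromosome 11, 73974667 to 73983307), a widely expressed carrier linked to the export of carboxylates, went the other way, from 45.7, 45.7 and 35.0 to 13.6, 9.98 and 12.6 (log2 change -1.72, SE 0.13, limma adjusted p = 1.1e-06). SLC25A30, a relative of SLC25A14 described in kidney, fell from 8.26, 8.21 and 7.10 to 2.94, 3.04 and 2.06 (log2 change -1.28). UCP3, best known from muscle, was under the filter with 36, 33 and 35 reads in Cont and 8, 41 and 12 in Dox. Its groups overlapped. Dox replicate 2 was above all Cont libraries in reads, but in FPKM it was at 0.562, below Cont replicate 1 at 0.581.

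**Figure D3:**
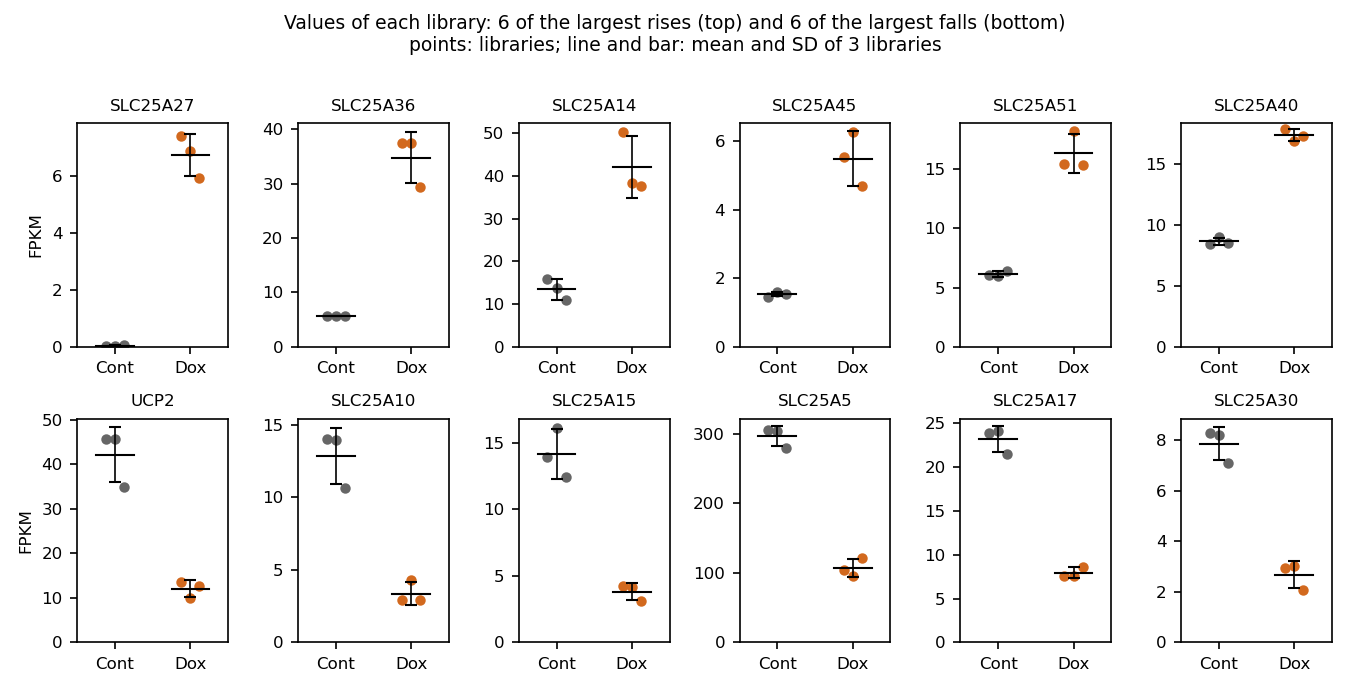
FPKM (vertical axes, each from 0) in the 3 Cont and 3 Dox libraries for 6 carriers among those with the largest rises and 6 among those with the largest falls in log2; points are libraries, and the line and bar give the mean and SD of 3 libraries. In all 12 panels the Cont and Dox points are apart, and SLC25A27 is near 0 in Cont.

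Carriers of nucleotides and cofactors included the second largest rise, with 2 rises and 2 falls among the 5 tested, beside 37.6% and 42.8% of all tested genes. SLC25A36 (chromosome 3, 140941830 to 140980961), a carrier of pyrimidine nucleotides needed for mitochondrial DNA and RNA synthesis, was at FPKM 5.72, 5.65 and 5.59 in Cont and at 37.5, 37.5 and 29.4 in Dox. The means were 5.65 ± 0.0665 and 34.8 ± 4.65 (SD, n = 3), or 6.15-fold higher in Dox (log2 change 2.42, SE 0.10, limma adjusted p = 1.84e-08). SLC25A33 (chromosome 1, 9539482 to 9585179), the other pyrimidine nucleotide carrier and known as a gene induced by insulin and insulin-like growth factor, fell from 7.25, 7.55 and 7.39 to 3.22, 2.93 and 3.23 (log2 change -1.03, SE 0.09, limma adjusted p = 2.21e-06). Mean FPKM of SLC25A33 and SLC25A36 was thus 7.40 and 5.65 in Cont, and 3.13 and 34.8 in Dox. Per length of the longest GENCODE 29 transcript, the Cont means would be 7.42 and 4.51. SLC25A51 (chromosome 9, 37879400 to 37904353), the NAD carrier, rose from 6.09, 5.97 and 6.43 to 15.5, 18.3 and 15.4, which is 2.66-fold higher (log2 change 1.27, SE 0.09). The S-adenosylmethionine carrier gene SLC25A26 was at 5.33, 5.31 and 3.98 in Cont and at 5.75, 6.60 and 5.26 in Dox, with overlapping groups (limma adjusted p = 0.108). It passed in TPM (0.35), with median-of-ratios scaling (0.29), in nuclear TPM (0.50) and with voom (0.35).

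Adenine nucleotide carriers exchange ADP for ATP and are among the most abundant proteins of the inner membrane. Their isoforms moved apart. SLC25A5 (chromosome X, 119468400 to 119471319), the isoform typical of growing cells, fell from 305, 304 and 279.9 to 104, 95.7 and 121 (log2 change -1.47, SE 0.09, limma adjusted p = 2.32e-07). SLC25A6, the ubiquitous isoform, fell less, from 374, 359 and 344 to 215, 228 and 210.3 (log2 change -0.72). SLC25A4 (chromosome 4, 185143241 to 185150382), the isoform of heart and muscle, rose from 5.30, 6.55 and 4.68 to 11.9, 12.7 and 9.37 (log2 change 0.92, SE 0.14, limma adjusted p = 0.000129). Summed over the 3 genes, FPKM was 661 ± 29.03 in Cont and 336 ± 5.06 in Dox (SD, n = 3). SLC25A5 supplied 44.9 ± 0.471% of that sum in Cont and 31.8 ± 3.57% in Dox, SLC25A6 54.3 ± 0.599% and 64.8 ± 3.04%, and SLC25A4 0.833 ± 0.128% and 3.37 ± 0.547%. Each of these 4 quantities had no overlap between groups (exact two-sided permutation p = 0.1 each, the smallest that 3 against 3 can give). The 3 shares are parts of the same sum, so they are not separate results. GENCODE 29 lists 9 pseudogenes named after SLC25A5 and 6 after SLC25A6, so reads shared with those copies leave the values of both genes uncertain. These shares also rest on the lengths that the authors used: per length of the longest GENCODE 29 transcript, SLC25A5 would supply 54.1 ± 0.447% in Cont and 40.0 ± 3.99% in Dox and SLC25A6 44.9 ± 0.594% and 55.9 ± 3.30%, so that their order in Cont turns. SLC25A3, the phosphate carrier gene, was at 93.2, 90.9 and 85.9 in Cont and at 76.1, 74.9 and 76.7 in Dox. It passed with a log2 change of -0.24, but the call ended in TPM (-0.13, limma adjusted p = 0.0636) and under quantile normalization (-0.0055, 0.928), and the direction turned in nuclear TPM (0.035, 0.573).

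Among carriers of ATP-Mg, phosphate and coenzyme A, 2 rose and 3 fell, beside 37.6% and 42.8% of all tested genes. SLC25A17 (chromosome 22, 40769630 to 40819399), a peroxisomal carrier of coenzyme A and other cofactors, fell from 23.9, 24.1 and 21.5 to 7.56, 7.62 and 8.66 (log2 change -1.44, SE 0.09, limma adjusted p = 1.87e-07). The calcium-regulated ATP-Mg carrier genes SLC25A24 and SLC25A25 fell as well, SLC25A24 from 10.9, 12.6 and 11.2 to 5.62, 6.20 and 6.68 and SLC25A25 from 7.90, 7.58 and 6.27 to 3.89, 4.53 and 4.18 (log2 changes -0.81 and -0.66). Their relative SLC25A23 was at 128, 129 and 112 in Cont and at 113, 135 and 129 in Dox (limma adjusted p = 0.787). It passed as higher under quantile normalization (0.28) and in nuclear TPM (0.31). SLC25A42, which carries coenzyme A into mitochondria, rose from 2.03, 1.52 and 1.85 to 3.61, 3.21 and 3.15 (log2 change 0.63). SLC25A16, which has been linked to coenzyme A, rose from 20.7, 19.3 and 14.1 to 27.9, 30.4 and 24.3 (log2 change 0.60).

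Among 6 carriers of pyruvate and carboxylates there were 1 rise and 4 falls as deposited, and 2 rises and 3 falls in nuclear TPM. Of all tested genes, 37.6% rose and 42.8% fell as deposited, and 47.6% and 33.1% in nuclear TPM. SLC25A10 (chromosome 17, 81712236 to 81721016), the dicarboxylate carrier that exchanges malate or succinate for phosphate, fell from 14.03, 13.96 and 10.6 to 2.92, 4.27 and 2.91. This was 3.82-fold lower (log2 change -1.67, SE 0.15, limma adjusted p = 2.78e-06). SLC25A1 (chromosome 22, 19175575 to 19178830), the citrate carrier that supplies cytosolic acetyl units for lipid synthesis, fell from 63.6, 63.2 and 58.2 to 31.9, 31.1 and 30.0 (log2 change -0.97, SE 0.07, limma adjusted p = 5.57e-07). The Dox values of SLC25A1 lay close together and well under the lowest Cont value. SLC25A11, the malate-oxoglutarate carrier of the malate-aspartate shuttle, fell from 35.5, 35.9 and 30.7 to 26.7, 25.9 and 25.1 (log2 change -0.38), a call that ended in nuclear TPM (-0.11, limma adjusted p = 0.179). The pyruvate carrier subunits differed: MPC2 fell from 51.4, 52.5 and 43.4 to 33.05, 31.9 and 35.0 (log2 change -0.54, SE 0.09), while MPC1 was at 8.48, 11.96 and 10.9 in Cont and at 13.7, 10.6 and 10.8 in Dox (log2 change 0.15, limma adjusted p = 0.309). MPC1 passed in nuclear TPM (0.43). SLC25A21, which carries oxoadipate in lysine breakdown, rose from 3.01, 2.57 and 1.79 to 3.48, 6.24 and 4.79 (log2 change 0.74, SE 0.19), with the widest Dox spread, relative to the mean, among the called carriers.

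The aspartate and glutamate carriers split evenly, with 2 rises and 2 falls, beside 37.6% and 42.8% of all tested genes. SLC25A12 (chromosome 2, 171784370 to 171999859), the gene of aralar, which exports aspartate in the malate-aspartate shuttle and is typical of brain and muscle, rose from 12.9, 14.6 and 12.4 to 22.9, 23.5 and 25.3 (log2 change 0.80, SE 0.08, limma adjusted p = 1.02e-05). SLC25A13 (chromosome 7, 96120220 to 96322147), the gene of citrin, its liver counterpart that also feeds the urea cycle, fell from 34.3, 35.9 and 33.4 to 13.6, 14.1 and 16.1 (log2 change -1.19, SE 0.08, limma adjusted p = 4.76e-07). Citrin transcript was thus the higher of the pair in every Cont library and the lower in every Dox library. Of the glutamate carriers, SLC25A22 fell from 19.8, 20.1 and 17.5 to 6.46, 8.18 and 8.42 (log2 change -1.22, SE 0.11). SLC25A18 was low, at 1.25, 0.983 and 1.27 in Cont and 1.79, 2.33 and 1.92 in Dox (76 to 182 reads), and rose by 0.48 (limma adjusted p = 0.00404). That call ended under quantile normalization (0.15, limma adjusted p = 0.262).

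Among the carriers of other amino acids and acylcarnitine, SLC25A15 (chromosome 13, 40789412 to 40810111), the ornithine carrier of the urea cycle, fell from 13.9, 16.1 and 12.4 to 4.21, 4.15 and 3.09 (log2 change -1.66, SE 0.13, limma adjusted p = 1.06e-06). GENCODE 29 lists 5 pseudogenes named after SLC25A15, and also 5 after SLC25A1 and 3 after SLC25A51, so shared reads leave these values uncertain too. SLC25A20 (chromosome 3, 48856931 to 48898993), which brings acylcarnitines into mitochondria for fatty acid oxidation, rose from 12.4, 12.6 and 10.2 to 21.1, 17.1 and 20.4 (log2 change 0.69, SE 0.11, limma adjusted p = 0.000193). SLC25A44, a carrier of branched-chain amino acids, fell from 23.7, 24.3 and 23.7 to 17.0, 17.3 and 18.5 (log2 change -0.42), and its call ended in nuclear TPM (-0.16, limma adjusted p = 0.0611). SLC25A29, a carrier of basic amino acids, was at 11.9, 13.5 and 12.3 in Cont and at 12.4, 14.3 and 12.6 in Dox. The glycine carrier gene SLC25A38, needed for heme synthesis, was at 19.9, 20.1 and 17.5 in Cont and at 21.4, 18.5 and 18.4 in Dox. For these the 95% intervals of the log2 change ran from -0.14 to 0.26 and from -0.18 to 0.22 (limma adjusted p = 0.545 and 0.857), and both passed as higher in nuclear TPM (0.33 and 0.29).

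Of the carriers of glutathione and iron, 1 rose and 3 fell, beside 37.6% and 42.8% of all tested genes. SLC25A39 (chromosome 17, 44319625 to 44324870), the main mitochondrial glutathione importer, fell from 171, 161 and 156 to 89.4, 95.6 and 94.2 (log2 change -0.80, SE 0.06, limma adjusted p = 1.66e-06). Its paralogue SLC25A40 (chromosome 7, 87833568 to 87876357) rose from 8.42, 9.003 and 8.56 to 17.9, 16.9 and 17.4 (log2 change 0.93, SE 0.07, limma adjusted p = 1.48e-06). SLC25A39 remained the higher of the pair in every library. The mitoferrin genes, which import iron for heme and iron-sulfur clusters, both fell: SLC25A37, the erythroid form, from 12.6, 13.2 and 13.8 to 5.58, 5.43 and 5.52 (log2 change -1.12), and SLC25A28, the widely expressed form, from 22.2, 24.96 and 28.3 to 11.3, 17.3 and 14.1 (log2 change -0.79).

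Carriers with no settled substrate or another role had 3 rises and 1 fall among the 4 tested, beside 37.6% and 42.8% of all tested genes. SLC25A45 (chromosome 11, 65375192 to 65383701) rose from 1.47, 1.59 and 1.54 to 5.54, 6.27 and 4.69, or 3.59-fold higher (log2 change 1.35, SE 0.11, limma adjusted p = 1.98e-06). SLC25A46 (chromosome 5, 110738136 to 110765161), an outer membrane protein that shapes mitochondria and cristae, rose from 130.2, 119 and 117 to 221, 204 and 206 (log2 change 0.78, SE 0.07, limma adjusted p = 3.11e-06). SLC25A35 rose by 0.47, from 2.14, 2.34 and 2.57 to 3.304, 4.01 and 3.64, and SLC25A43 fell by 0.81 on the log2 scale, from 11.6, 12.2 and 11.5 to 5.75, 5.86 and 7.35. SLC25A34, SLC25A47 and SLC25A53 were under the filter. SLC25A34 had 3, 23 and 7 reads in Cont and 58, 66 and 27 in Dox, and SLC25A47, a liver-enriched carrier, had 9, 12 and 3 in Cont and 22, 31 and 32 in Dox. Per library scale these were 4.24-fold (95% exact interval 2.89 to 6.38) and 3.28-fold (2.07 to 5.40) more reads in Dox, intervals that cover counting error only. SLC25A53 had 81 to 92 reads in Cont and 81 to 108 in Dox, a ratio of 0.987 (0.831 to 1.17). For UCP3 the same ratio was 0.544 (0.390 to 0.753), although its groups overlapped. All these ratios pool the reads of a group, so the intervals leave out the spread between libraries.

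Pairs of related carriers were compared within each library, since the ratio of 2 genes in 1 library does not depend on scaling. The log2 ratio of FPKM was taken for 11 pairs, and in 10 of them the Cont and Dox libraries did not overlap, beside 82.1% of all tested genes taken singly. The pairs were chosen with earlier results known, and no share over other pairs was computed. Each of the 10 had an exact two-sided permutation p of 0.1, the smallest that 3 against 3 can give, and 0.11 after Benjamini-Hochberg adjustment over the 11 pairs, so this test could not pass 0.05. In 6 pairs limma called the members in opposite directions, where 37.6% of all tested genes rose and 42.8% fell. The ratio of SLC25A33 to SLC25A36 moved most, from 0.34, 0.42 and 0.40 in Cont to -3.54, -3.68 and -3.19 in Dox, a 14.5-fold shift. SLC25A14 over SLC25A30 shifted 9.30-fold, with a mean log2 ratio of 0.76 ± 0.16 in Cont and 3.98 ± 0.29 in Dox. SLC25A4 over SLC25A5 shifted 5.72-fold, and SLC25A18 over SLC25A22 shifted 4.32-fold. For SLC25A12 over SLC25A13 the values were -1.41, -1.30 and -1.43 in Cont and 0.75, 0.74 and 0.65 in Dox, so that the order of the pair turned, with a 4.27-fold shift. SLC25A39 over SLC25A40 shifted 3.51-fold and SLC25A10 over SLC25A11 shifted 2.94-fold, each toward the second gene. Smaller shifts were those of SLC25A23 over SLC25A24 (1.91-fold), SLC25A6 over SLC25A5 (1.69-fold) and MPC1 over MPC2 (1.65-fold). The mitoferrin ratio, SLC25A28 over SLC25A37, overlapped between groups, at 0.82, 0.92 and 1.04 in Cont and 1.02, 1.67 and 1.35 in Dox (exact permutation p = 0.2).

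**Figure D4:**
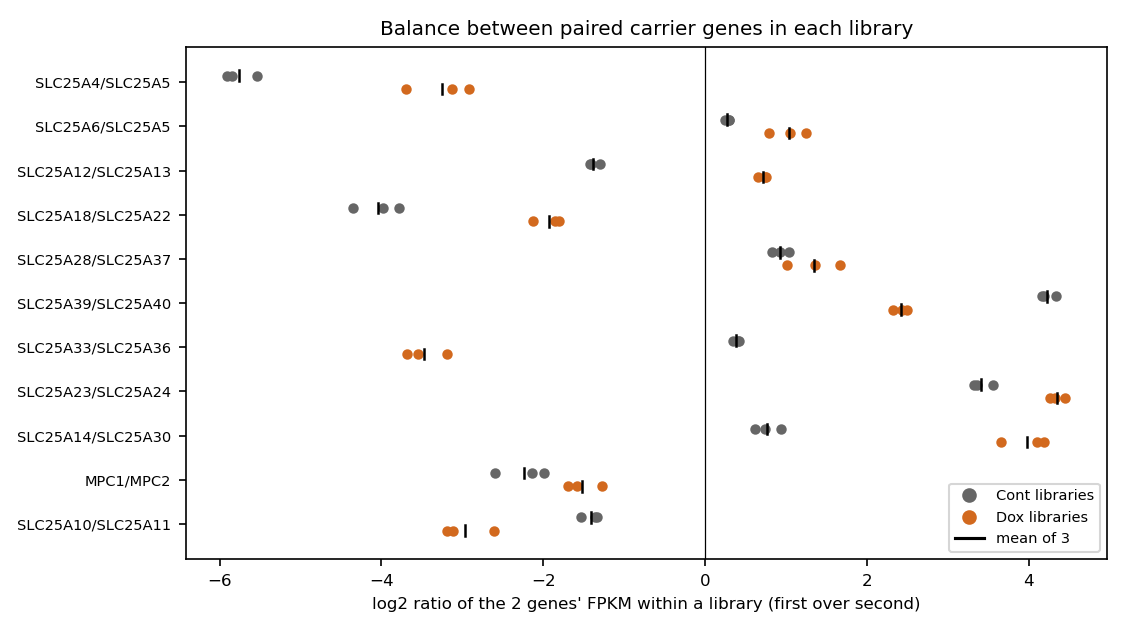
Log2 ratio of FPKM of 11 gene pairs within each library (horizontal axis, first gene over second), with Cont libraries in grey, Dox libraries in orange and a black tick at the mean of 3. In 10 pairs the groups are apart, and SLC25A12/SLC25A13 and SLC25A33/SLC25A36 cross 0 in opposite directions.

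Levels of different carriers can be compared only per length, and here the length matters. The steps of the values imply the length that the authors used for each gene, and for 8 of the 46 carriers it was under 50% of the longest GENCODE 29 transcript. It was 558 bases for SLC25A46 (longest transcript 6236), 736 for SLC25A23 (3425) and 608 for SLC25A14 (1734). In FPKM as deposited, the order of Cont means ran SLC25A6 (359 ± 15.03), SLC25A5 (296 ± 14.3), SLC25A39 (163 ± 7.35), SLC25A23 (123 ± 9.30), SLC25A46 (122 ± 7.15) and SLC25A3 (90.0 ± 3.74). SLC25A23 and SLC25A46 did not differ beyond their spread. Per length of the longest transcript, SLC25A46 would fall from rank 5 to 19 and SLC25A23 from 4 to 10, while SLC25A5, SLC25A6, SLC25A39 and SLC25A3 would take ranks 1 to 4. In Dox, SLC25A6 was highest on both scales, at 218 ± 8.92 in FPKM as deposited. A length divides Cont and Dox alike, so the division touches the change of a single gene only through the pseudocount. Sums over genes depend on the length directly. Whether reads were counted over the whole gene or over 1 shorter transcript is not known. In the second case a change, such as that of SLC25A46 or SLC25A14, may be that of this transcript alone. Ranks per longest transcript assume reads from the whole gene. Recovered reads are not divided by the length. The 46 carriers took 0.308 ± 0.0103% of all recovered reads in Cont and 0.248 ± 0.00184% in Dox (SD, n = 3). The exact permutation p was 0.1, the smallest possible. Of reads from nuclear genes alone the carriers took 0.316 ± 0.00895% and 0.272 ± 0.00345%, also without overlap. Genes with many reads weigh most in these shares. SLC25A3, SLC25A5, SLC25A6 and SLC25A39 had 16113, 11331, 15399 and 7783 reads in Cont replicate 1 (29.2 M reads in all). In Dox replicate 1 (46.0 M) they had 21835, 6384, 14714 and 6767. The lower share is therefore not a fall of each carrier, and single carriers moved in both directions.

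Other genes of mitochondrial transport were read from the same fit, as 4 lists, beside 37.6% of all tested genes higher, 42.8% lower and a median of -0.06. Of 13 tested genes of the import route that carries these proteins through the outer membrane and into the inner one, 1 rose and 11 fell (median log2 change -1.01). The chaperone genes TIMM9 and TIMM10, whose products escort carriers across the intermembrane space, fell from 20.2 ± 1.31 to 5.45 ± 1.03 and from 63.7 ± 8.21 to 22.8 ± 3.57. TOMM70, the outer membrane receptor that recognises carriers, was the rise, from 26.9 ± 1.37 to 77.6 ± 2.35 (log2 change 1.50). TIMM22, the pore that inserts them, fell from 14.8 ± 2.36 to 10.2 ± 0.26, a call that ended once mitochondrially encoded genes were removed (limma adjusted p = 0.0592). Of 11 outer membrane channel and calcium uniporter genes, 4 rose and 5 fell (median -0.07), shares of 36.4% and 45.5% that are near those of all tested genes: the porins VDAC1 (-1.76), VDAC2 (-1.06) and VDAC3 (-1.46) fell, and SLC8B1, the mitochondrial sodium-calcium exchanger gene, rose from 5.38 ± 1.47 to 15.8 ± 1.46 (log2 change 1.42). Of 11 other genes, most of them inner membrane transporters but with MTCH1 and MTCH2 among them, 2 rose and 9 fell (median -0.71). All 5 sideroflexins fell, among them the serine carrier gene SFXN1 (-1.02), and ABCB8 (0.39), an ABC transporter of the inner membrane, rose. Of 15 enzymes that work with the carriers, 3 rose and 11 fell (median -0.51). The rises were CPT1A (0.56) and CPT2 (0.57), which act before and after SLC25A20 in acylcarnitine import, and PC (0.51), and the falls included ACLY (-1.58), which cleaves the citrate that SLC25A1 exports, and the shuttle enzymes GOT1 (-0.80) and GOT2 (-0.98). In nuclear TPM the rises and falls of the 4 lists were 2 and 9, 5 and 5, 2 and 8, and 4 and 9, beside 47.6% and 33.1% of all tested genes.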

How the data were processed

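Poly(A) RNA was profiled in 6 libraries of SNU449 cells. The authors deposited 1 table of log2 FPKM for 13117 genes and 6 libraries; the log2 scale was read from the values, -8.59 to 13.9. FastQC 0.11.7 and GRCh38 are named in the submitters' processing notes; the aligner, counter and annotation are not given in the sources used here. Columns were matched to samples by title, since 1 sample description (Cont replicate 1) names the column of Cont replicate 2.

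In 307 genes at least 2 libraries shared a lowest value, taken as 0 reads. Values rose from it in whole reads (within 0.05 reads up to 20 reads), over an offset of 2.0 reads on average. Taking gene lengths as whole numbers of bases then gave whole reads, within 0.01 reads, for 99.97% of genes.

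The test was two-sided, on log2(FPKM + 1), by limma (version 3.58.1, R version 4.3.3) with a mean-variance trend, over the 11526 genes that reached FPKM 1 in 3 or more libraries. The pseudocount understates changes of low genes. The fit and the read recovery were tested on simulated data. Coordinates are from GENCODE 29 (GRCh38). Alternatives were pseudocounts of 0.1 and 0.01, the deposited log2 values, no filter, a filter at FPKM 5, 4 other scalings, a block for the replicate number, robust moderation, a fit without trend and leaving out each library; limma voom on recovered reads was added after the data were seen. The filter was kept as set on all 6 libraries when one was left out. The members, role groups, pairs and lists were chosen with earlier results of these data known. Some items, among them 1 carrier, are not reported here by name and are left out of the figures, but stay in the counts. Every other listed member is named, with its value in every library whatever its change (reads for those under the filter; a range for SLC25A53), and the others among the 6 largest rises and 6 largest falls of those called are described in full. Genes of the 4 related lists and of the marker lists that are named as examples were chosen after their values were seen. A further 6 carriers of the role groups, and comparisons of protein sequence, were not analysed here. Lists of epithelial, leukocyte and endothelial markers were summed too: the epithelial markers went from 122 to 127 FPKM in Cont to 32.8 to 34.5 in Dox, the mesenchymal from 1056 to 1059 to 436 to 499.7 (a fall carried by VIM, while 3 of the 5 markers rose), the hepatocyte from 146 to 210.1 to 13.7 to 19.3, and leukocyte and endothelial markers stayed under 2.4 in every library.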

Additional observations from a re-analysis of the deposited data

How the results depend on the processing

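The counts of all genes changed, of carriers changed, higher and lower, and of each of the 4 related lists stayed within 1.5 times their value under each of the 19 alternatives, and 33 of the 42 carriers kept their direction and their side of the threshold under all of them that tested the gene. Carriers changed numbered 32 with the filter at FPKM 5, where fewer were tested, and 36 to 39 under the other alternatives. Of the other 9, SLC25A3, SLC25A11, SLC25A18 and SLC25A44 lost their call under 1 or more scalings, and MPC1, SLC25A23, SLC25A26, SLC25A29 and SLC25A38 gained one. SLC25A3 turned to 0.035 with TPM without mitochondrially encoded genes. With 1 library left out, SLC25A23 ranged from -0.0373 (without Cont replicate 3) to 0.102, SLC25A38 from -0.0501 (without Dox replicate 1) to 0.0539 and SLC25A29 from -0.00177 (without Dox replicate 2) to 0.108. SLC25A38 was also below 0 without Cont replicate 3, and SLC25A23 without Dox replicate 2. None of these values below 0, nor that of SLC25A3, passed the threshold.

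With the replicate number as a block, 37 carriers changed (15 higher, 22 lower) and 9272 of all tested genes. The numbers were not taken to pair the libraries, because the correlations of same-numbered libraries' deviations were 0.037, -0.0048 and 0.079. Leaving out any 1 library gave 37 changed carriers each time. Depth limits SLC25A27 in Cont (7 reads in all) and the 4 carriers under the filter, whose values rest on 3 to 108 reads per library.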

Other observations

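The palindrome TGACGTCA, the consensus of the cyclic AMP response element, was noticed in the promoters of SLC25A36 and SLC25A33 after their sequences were printed. It was also in that of SLC25A25, so 3 of the 41 carrier promoters held it (7.32%), against 1.98% of all 27305 promoters. Among all tested genes with a promoter, it was in 3.26% of those that rose and 3.70% of those that fell. SLC25A36 rose and SLC25A33 and SLC25A25 fell. The motif was chosen on these sequences, so the count is a description.

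The recovered reads of the listed genes summed to 1.01 to 1.04 times the library scale that the deposited values imply in the Cont libraries, and to 0.973 to 0.977 times in the Dox libraries. The deposited FPKM was therefore scaled by something other than the sum over the listed genes, in a way that differed between the groups.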
